A study of Homo sapiens with 6 samples.

Results

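The phase II conjugation enzymes were followed in BxPC-3 xenograft tumors after oral deferasirox (DFX), an iron chelator that is itself cleared mainly by glucuronidation through UGT1A enzymes. Members were all genes whose name on the array matched the UDP-glucuronosyltransferases (UGT1, UGT2, UGT3 and UGT8), the cytosolic sulfotransferases (SULT), or the soluble glutathione S-transferases (GST) of the A, M, P, T, O, Z and K classes. The array carried 44 such genes on 56 probes, of 34423 named genes on 50599 probes. They were 13 UGT, 12 SULT and 19 GST genes. The rule uses names only and no measured value, although the family was picked for study with earlier results of these data known.

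The comparison rested on 3 tumors from control mice given the vehicle alone (0 mg/kg DFX) and 3 tumors from mice given 200 mg/kg DFX by gavage for 21 days, starting at a tumor volume of 150 mm3. BxPC-3 is a human pancreatic adenocarcinoma cell line, and it was grown under the skin of young adult female BALB/c nude mice. All tumors came from this one line, and each array held the RNA of 1 tumor. The mice lack T cells but keep other immune cells, and host stroma contributes mouse RNA to each tumor. Mouse transcripts can bind a human 60-base probe, and their part in the values was not tested.

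Phase II enzymes attach a polar group to drugs, hormones, bile acids and reactive compounds, which makes them soluble and easier to excrete. UGTs transfer glucuronic acid (UGT8 transfers galactose), SULTs transfer sulfate from PAPS, and GSTs transfer glutathione. UGTs and SULTs are best known from liver and gut epithelium, where they clear bilirubin, steroids and many oral drugs, whereas GSTP1 is the abundant GST of many carcinomas.

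The probes decide what each gene name can mean here, so those on which the UGT results turn are shown first. The UGT2B genes lie in a cluster on chromosome 4 and are close copies of each other. The probe named UGT2B10 is at chr4:69696473-69696532 on the forward strand, and the probe named UGT2B11 is at chr4:70066221-70066280 on the reverse strand (build hg19, from the array annotation). Over the 58 bases that they share, 54 matched (93.1%). The capitals mark the 4 bases that differ.
UGT2B10: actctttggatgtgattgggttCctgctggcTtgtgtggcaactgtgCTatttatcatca
UGT2B11: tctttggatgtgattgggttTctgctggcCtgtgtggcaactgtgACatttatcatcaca

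The annotation lists transcripts of UGT2B11 beside UGT2B10 for the first of these probes, and of UGT2B28 beside UGT2B11 for the other. Another UGT2B11 probe, at chr4:70074103-70074162 on the reverse strand, is also listed for UGT2B28 and has no such overlap with the UGT2B10 probe. Probes were compared with probes only, so whether that probe also binds UGT2B10 RNA was not tested. The UGT2B7 probe, at chr4:69978384-69978443 on the forward strand, is listed for UGT2B7 alone. They are printed because their agreement or difference bears on how far the UGT2B signals stand for separate genes.
UGT2B11, other probe: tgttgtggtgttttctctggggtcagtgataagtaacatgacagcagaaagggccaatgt
UGT2B7: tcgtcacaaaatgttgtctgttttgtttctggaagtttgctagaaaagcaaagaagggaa

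The UGT1A locus on chromosome 2 works differently. Its enzymes share their last exons, and each takes its own first exon from a separate promoter. The array names 2 UGT1A genes, UGT1A6 with 2 probes and UGT1A8 with 1, and every one of these probes is annotated to 4 UGT1A transcripts. UGT1A6, UGT1A4, UGT1A1 and UGT1A8 are listed for the UGT1A6 probes, one of which is shown. It lies at chr2:234676521-234676580, on the forward strand. The UGT1A values below are therefore values of the locus, not of 1 enzyme.
UGT1A6, other probe: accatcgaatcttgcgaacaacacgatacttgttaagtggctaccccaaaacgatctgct

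Of the 44 genes, 27 stood well above background on all 6 arrays by at least 1 probe, 5 on some arrays and 12 on none. Among the GST genes 15 of 19 were well above background on all 6 arrays, against 8 of 13 UGT genes and 4 of 12 SULT genes. The liver enzymes SULT2A1, which sulfates bile acids and DHEA, and UGT2B4, which glucuronidates bile acids, were not well above background in any tumor. The same held for UGT2A1, UGT2A3, UGT3A1, UGT3A2, SULT1B1, SULT1C2P1, SULT1C4, SULT4A1, GSTT1 and GSTA7P. Between 32 and 36 of the 56 member probes were well above background in each tumor, and between 50.3% and 56.5% of all probes.

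Differences were tested for the 34 member genes with a probe distinguishable from background in every tumor (spot against background at a p under 0.05 on each of the 6 arrays), each gene by its brightest such probe. Levels are log2 intensities after quantile normalization, and a difference of 1 is a doubling. Since each probe has its own brightness, levels were compared between tumors and not between genes. At an unadjusted limma p under 0.05, 5 member genes were higher in the DFX-treated tumors and 1 was lower. This was 6 of 34 (17.6%), where 3.68% of the 22718 tested genes were called higher and 4.29% lower. No member passed once the limma p-values were adjusted by Benjamini-Hochberg over the whole set of tested probes, and neither did any other gene (0%). The 6 called members had adjusted p-values of 0.505 to 0.554.

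The called genes were UGT2B7, UGT2B10, UGT2B11, UGT2B15 and SULT1C2, which were higher, and SULT6B1, which was lower. The median log2 difference was 0.06 over the 34 members and -0.01 over all tested genes. It was 0.74 over the 9 UGT genes, 0.27 over the 8 SULT genes and -0.18 over the 17 GST genes. The groups did not overlap for 7 members that were higher and 2 that were lower with DFX, where 7.03% and 8.41% of all tested genes did so.

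**Figure D1:**
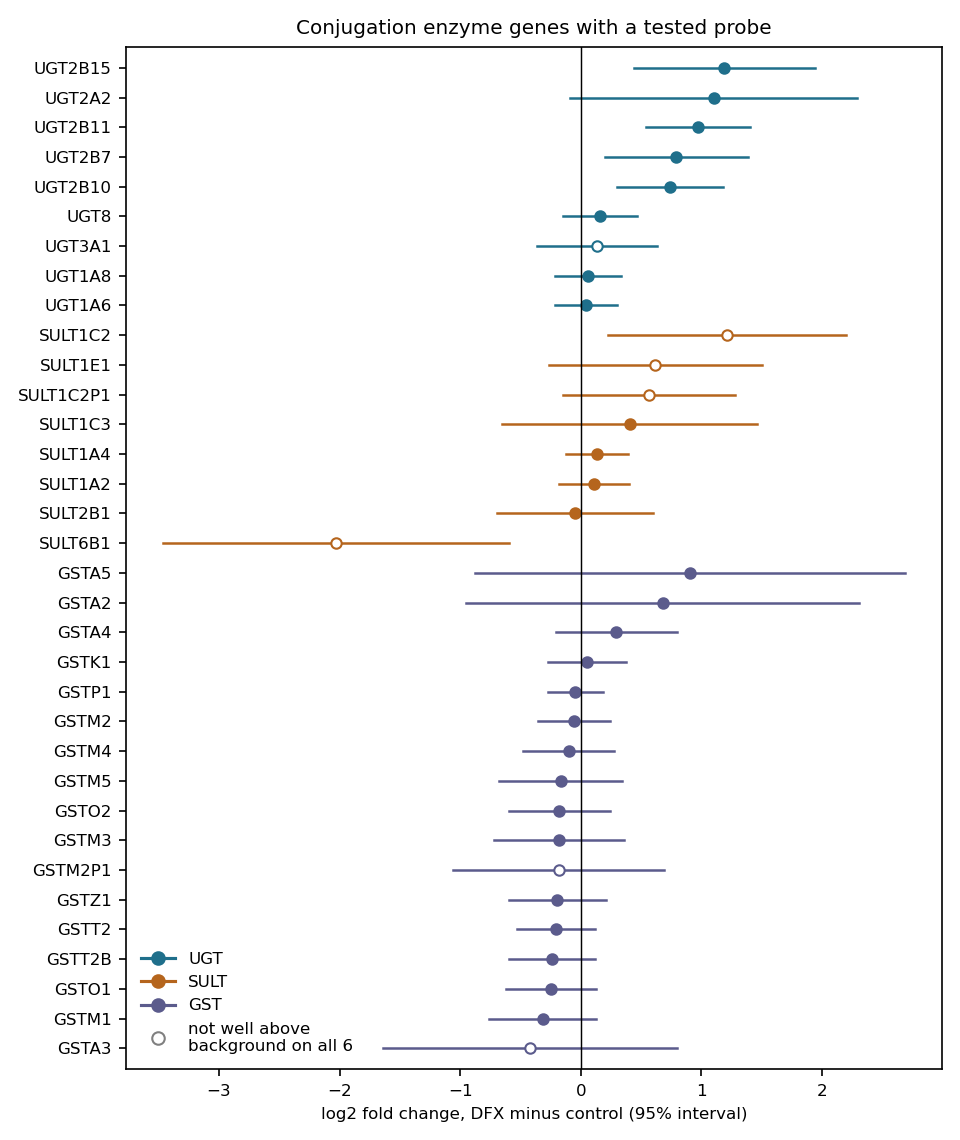
Log2 fold change of each of the 34 tested conjugation enzyme genes, DFX-treated minus control tumors, with its 95% interval from limma (x axis, log2 units); rows are genes, grouped as UGT, SULT and GST from the top. Filled points were well above background on all 6 arrays. The 4 UGT2B genes lie between 0.74 and 1.19 with intervals above 0, SULT6B1 lies at -2.03, and most GST genes lie slightly below 0.

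The UGT2B enzymes glucuronidate steroids, bile acids, fatty acids and opioids. All 4 that could be tested rose at the unadjusted threshold, and for each of them every DFX-treated tumor lay above every control tumor. Their differences of 0.74 to 1.19 correspond to 1.67- to 2.28-fold. None of these held after adjustment over all probes. That the 4 share a group was seen in the data before they were summarized together.

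UGT2B15 conjugates androgens. Its level was 4.83, 4.64 and 4.08 in control tumors 1 to 3, against 6.02, 5.95 and 5.14 in DFX-treated tumors 1 to 3. The mean was 4.52 ± 0.39 for the controls and 5.71 ± 0.49 for the treated tumors (SD, n = 3 each), and the third DFX-treated tumor was the closest to the controls. The difference was 1.19 (SE 0.31, 2.28-fold), with an unadjusted p of 0.00817 and an adjusted p of 0.514 by limma. The annotation also lists UGT2B17, a close copy with the same androgen substrates, for this probe.

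UGT2B11, a less studied member with fatty acid and steroid substrates, had 2 tested probes. The brighter gave 7.64, 7.18 and 7.23 in the controls, against 8.38, 8.49 and 8.10 under DFX. The difference was 0.97 (SE 0.18, 1.96-fold), with an unadjusted p of 0.00145 and an adjusted p of 0.505 by limma. The groups were separated by more than the spread within either. The other probe, which does not overlap the UGT2B10 probe, gave 3.99, 3.64 and 3.73 in the controls, against 5.11, 4.94 and 4.89 under DFX. Here no control tumor was well above background, so that only a bound can be given: at least 1.95-fold higher with DFX (fitted difference 1.19, limma unadjusted p 0.000123 and adjusted p 0.488). For the bound, each control array was set to its dimmest signal counted as well above background, or to the probe's own signal where that was higher. Both probes, each also listed for UGT2B28, were higher with DFX, and their sizes cannot be compared.

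UGT2B10 acts on tertiary amines such as nicotine. Its level was 8.03, 7.61 and 7.51 in the controls, against 8.67, 8.38 and 8.34 under DFX, with the first control tumor nearest to the treated ones. The difference was 0.74 (SE 0.18, 1.67-fold), with an unadjusted p of 0.00612 and an adjusted p of 0.514 by limma.

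UGT2B7 is the main morphine glucuronidating enzyme. Its level was 5.79, 5.68 and 5.71 in the controls, against 6.89, 6.68 and 5.98 under DFX. The control tumors lay close together, and the spread lay in the DFX-treated tumors, of which the third was close to the controls. The difference was 0.79 (SE 0.24, 1.73-fold), with an unadjusted p of 0.0168 and an adjusted p of 0.529 by limma. Without the second DFX-treated tumor it was 0.71 and missed the threshold (limma unadjusted p 0.0533). Another probe named UGT2B7, placed elsewhere in the locus and with no RefSeq transcript listed, was not well above background in any tumor.

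The UGT2B genes shared part of their order between tumors. Taking the median over the 4 genes of the deviation from the control mean, the control tumors stood at 0.30, -0.08 and -0.16 and the DFX-treated tumors at 1.096, 1.05 and 0.62. The first control tumor was the highest control in all 4 genes, and the third DFX-treated tumor was the lowest of its group in all 4. The sizes differed: DFX-treated tumors 2 and 3 stood at 6.68 and 5.98 for UGT2B7, and at 8.38 and 8.34 for UGT2B10. The first control tumor was also the highest control for other members, such as UGT2A2, GSTA2 and GSTA5. The UGT2B10 and UGT2B11 probes share sequence, so that these are not 4 independent measurements.

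The arrays lay on 1 slide, the control tumors in its first row and the DFX-treated tumors in the next, so row and treatment cannot be told apart. Slide columns crossed the groups in part, and 2 columns held a tumor of each group. Within those columns the UGT2B15 difference was 1.13 and 1.06, that of UGT2B11 0.86 and 0.87, that of UGT2B7 0.90 and 0.27, and that of UGT2B10 0.34 and 0.82. All 8 values were above 0. With the column as a block in limma, only these 2 columns inform the difference. Few degrees of freedom remain in that fit, so its p-values lean on the moderation of the variance. UGT2B11 (difference 0.86, limma unadjusted p 0.0200) and UGT2B15 (1.09, p 0.00915) passed in it. UGT2B7 (0.59, p 0.103) and UGT2B10 (0.58, p 0.0877) did not.

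**Figure D2:**
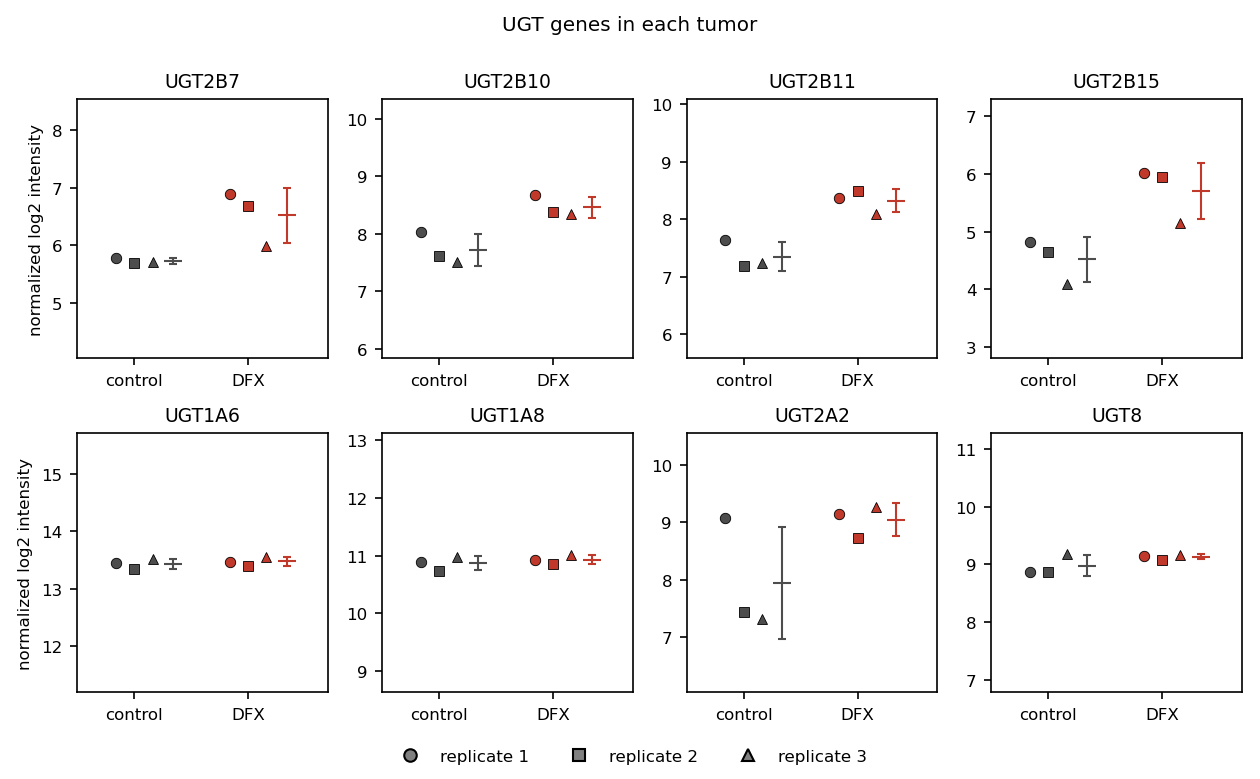
Normalized log2 intensity (y axis) of 8 UGT genes in each control (grey) and DFX-treated (red) tumor, with the mean and SD of each group (n = 3) as a bar beside the points; the marker shape gives the replicate number, and each panel spans the same number of log2 units around its own center. The UGT2B panels separate the groups, the UGT1A panels show all 6 tumors at nearly the same level, and UGT2A2 has 1 control tumor at the level of the treated ones.

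The UGT1A locus, which encodes the enzymes that clear DFX, bilirubin and many phenols, did not pass the test by any probe. For the brighter UGT1A6 probe the control tumors stood at 13.45, 13.34 and 13.51 and the DFX-treated tumors at 13.46, 13.40 and 13.56. The difference was 0.04, with a 95% interval of -0.22 to 0.30 (limma unadjusted p 0.706). The groups overlapped. The interval ends below the point estimate of each of the 4 UGT2B genes, but it overlaps the interval of UGT2B7, which starts at 0.20. The UGT1A8 probe gave 10.89, 10.74 and 10.98 in the controls, against 10.92, 10.86 and 11.01 under DFX. Its difference was 0.06, with an interval of -0.22 to 0.34 (limma unadjusted p 0.619). The other UGT1A6 probe, in the shared part of the locus, gave a difference of -0.12 with an interval of -0.43 to 0.19 (limma unadjusted p 0.370). With median scaling in place of quantile normalization the 2 UGT1A genes turned to -0.0644 and -0.0680, where the median of all genes also moved to -0.10. The difference between the UGT1A and UGT2B responses was not itself tested.

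UGT2A2, an enzyme of nasal and intestinal epithelium, shares most of its sequence with UGT2A1, and the probe is annotated to both. Its level was 9.06, 7.44 and 7.32 in the controls, against 9.14, 8.72 and 9.27 under DFX. The groups overlapped through the first control tumor, which was as high as the treated ones. The treated tumors were 2.15-fold higher on average (SE 0.49 on the log2 scale), with an unadjusted p of 0.0639 and an adjusted p of 0.610 by limma. Without that control tumor the log2 difference was 1.66 (limma unadjusted p 0.000420). Within the slide columns it was -0.35 and 1.95.

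UGT8, which makes the galactolipids of myelin, differed by 0.16 (limma unadjusted p 0.256). UGT3A1, which uses N-acetylglucosamine in place of glucuronic acid, was not well above background in any tumor, and no fold is given for it. By the brightest probe, the fitted difference was above 0 for all 9 tested UGT genes, UGT3A1 near background included, and for 7 of 9 under median scaling. The other UGT1A6 probe gave -0.12. The UGT1A probes read the same locus, and the UGT2B10 and UGT2B11 probes share sequence, so the 9 are not independent. Among all 22718 tested genes 10836 were above 0.

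The SULT genes moved in both directions. SULT1C2, a phenol sulfotransferase of stomach and kidney, rose at the unadjusted threshold. Its level was 4.52, 5.12 and 3.53 in the controls, against 5.87, 5.47 and 5.46 under DFX. The groups did not overlap, and the third control tumor was not well above background. The difference was 1.21 (SE 0.40, 2.32-fold), with an unadjusted p of 0.0235 and an adjusted p of 0.554 by limma. It was 1.08 without the first DFX-treated tumor, and then missed the threshold (limma unadjusted p 0.0689). Without the third control tumor it was 0.78 and passed (limma unadjusted p 0.0236), and it was 0.47 with normexp correction and 0.35 without background subtraction. Its other probe gave 3.90, 4.51 and 3.42 in the controls, against 5.19, 4.16 and 5.17 under DFX, a difference of 0.90 with overlap between the groups (limma unadjusted p 0.0600).

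The brighter SULT1C2 probe lies at chr2:108921954-108922013 on the forward strand (hg19), beside its close relative SULT1C3 and the pseudogene SULT1C2P1. It is shown because the annotation gives it to SULT1C2 alone.
SULT1C2: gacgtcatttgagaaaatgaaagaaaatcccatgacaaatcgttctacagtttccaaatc

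The neighbours of SULT1C2 did not pass. SULT1C3 stood at 7.67, 7.57 and 6.49 in the control tumors and at 8.34, 7.15 and 7.44 in the DFX-treated tumors, with overlap (difference 0.41, limma unadjusted p 0.385). The pseudogene SULT1C2P1 was not well above background on any array. Its values of 2.15, 3.03 and 3.06 against 3.13, 3.17 and 3.65 did not overlap (limma unadjusted p 0.0994), and no fold is given for it.

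SULT6B1, a sulfotransferase with thyroxine as a reported substrate, was the member that fell. Its level was 6.93, 5.52 and 7.74 in the controls, against 5.13, 4.84 and 4.14 under DFX. The control tumors spread widely, and the second of them lay close to the treated ones. The difference was -2.03 (SE 0.59), with an unadjusted p of 0.0134 and an adjusted p of 0.522 by limma. All 3 control tumors but only 1 of the DFX-treated tumors were well above background. Within the slide columns the difference was -2.08 and -3.61. Its other probe was not well above background in any tumor.

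The remaining SULT genes did not pass the test. SULT1A4, listed with its copies SULT1A3 and SULT1A1 for dopamine and phenol sulfation, gave 12.51, 12.53 and 12.49 in the controls, against 12.63, 12.77 and 12.55 under DFX. The groups did not overlap, and the difference was 0.14 (95% interval -0.12 to 0.39, limma unadjusted p 0.240). SULT1A2 differed by 0.11 and SULT2B1, the cholesterol sulfotransferase, by -0.05. The estrogen sulfotransferase SULT1E1 differed by 0.62 (limma unadjusted p 0.138) and was well above background in 1 tumor of each group.

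**Figure D3:**
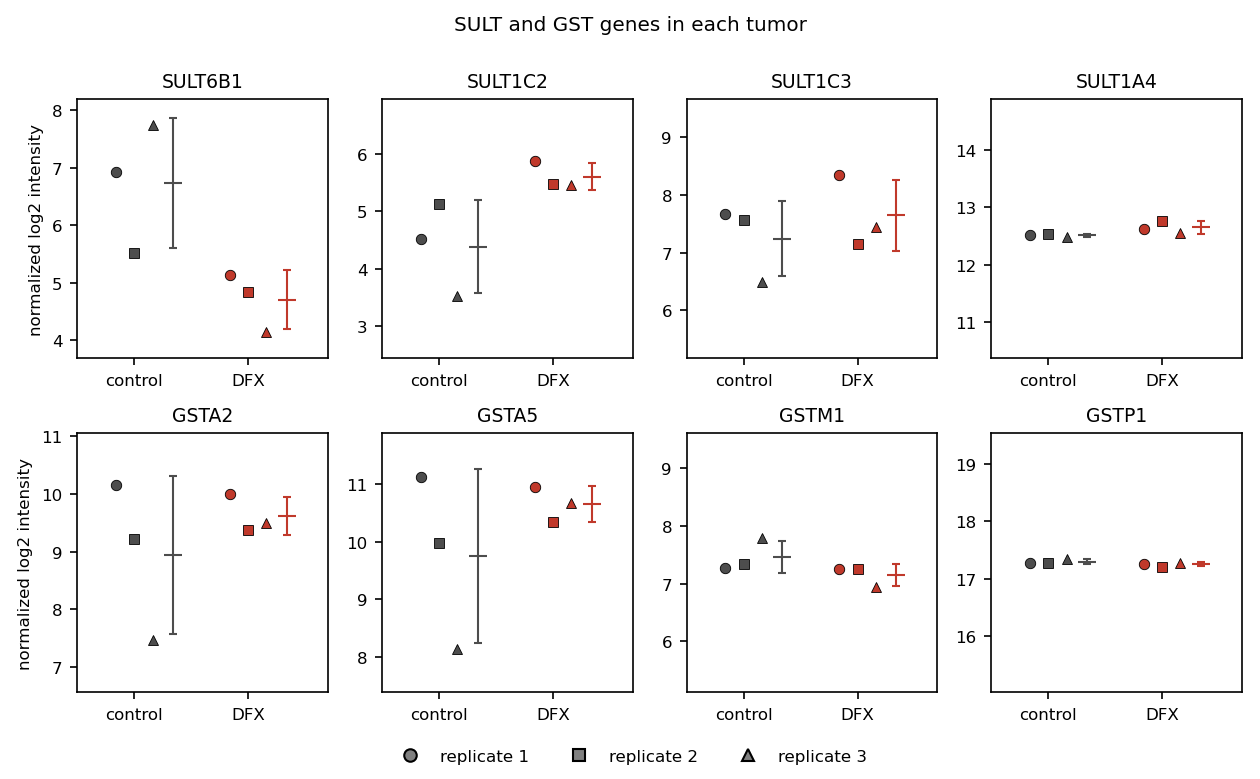
Normalized log2 intensity (y axis) of 4 SULT and 4 GST genes in each control (grey) and DFX-treated (red) tumor, with the mean and SD of each group (n = 3) beside the points; the marker shape gives the replicate number. SULT6B1 is lower and SULT1C2 higher with DFX, GSTA2 and GSTA5 are low in control tumor 3, and GSTP1 is level across all 6 tumors.

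None of the 17 tested GST genes passed, in either direction. GSTP1, the GST of pancreatic ductal and many other carcinomas, stood at 17.27, 17.27 and 17.34 in the control tumors and at 17.26, 17.21 and 17.28 in the DFX-treated tumors. The difference was -0.04, with a 95% interval of -0.27 to 0.19 (limma unadjusted p 0.652). The groups overlapped and all 6 tumors lay close together.

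GSTA5 and GSTA2, alpha class GSTs of a family that detoxifies lipid peroxidation products, varied widely within the control group. GSTA5 was 11.13, 9.98 and 8.14 in the controls, against 10.95, 10.34 and 10.67 under DFX. GSTA2 was 10.15, 9.22 and 7.46 in the controls, against 10.00, 9.37 and 9.49 under DFX. In both genes the third control tumor was far below all other tumors and the first control tumor was the highest. The differences were 0.91 (limma unadjusted p 0.260) and 0.68 (p 0.347), and without the third control tumor they were 0.10 (p 0.808) and -0.0625. The GSTA2 probe is also annotated to GSTA1 and GSTA5, so the pair is not independent. GSTA4, which clears 4-hydroxynonenal, differed by 0.30 and did not pass (limma unadjusted p 0.199). GSTA3, which isomerizes steroids, reached a signal well above background in no treated tumor, and no fold is given for it.

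The other GST classes shifted little. Of the 13 tested GST genes outside the alpha class, 12 were below 0, with a median of -0.18 and none called. The 12 include the pseudogene GSTM2P1, which was well above background on only 1 array. Below 0 were 11 with scaling to the 75th percentile and 13 with median scaling. Among all 22718 tested genes 11882 were below 0. The probes of GSTT2 and GSTT2B are each annotated to both genes, and those of GSTO1 and GSTO2 overlap in sequence, so the 13 are not independent. GSTM1 was 7.28, 7.33 and 7.79 in the controls, against 7.26, 7.25 and 6.93 under DFX, without overlap (difference -0.32, limma unadjusted p 0.134). The probes of GSTM1 and GSTM4 are each annotated to both genes, and GSTM1 is absent from many human genomes, so that the signal cannot be assigned to 1 of them. GSTO1, which reduces dehydroascorbate, differed by -0.24, and the theta class copies GSTT2 and GSTT2B by -0.20 and -0.24. GSTZ1 of tyrosine breakdown differed by -0.19, and the mitochondrial GSTK1 by 0.05. The other GSTK1 probe gave -0.23 (limma unadjusted p 0.189).

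**Figure D4:**
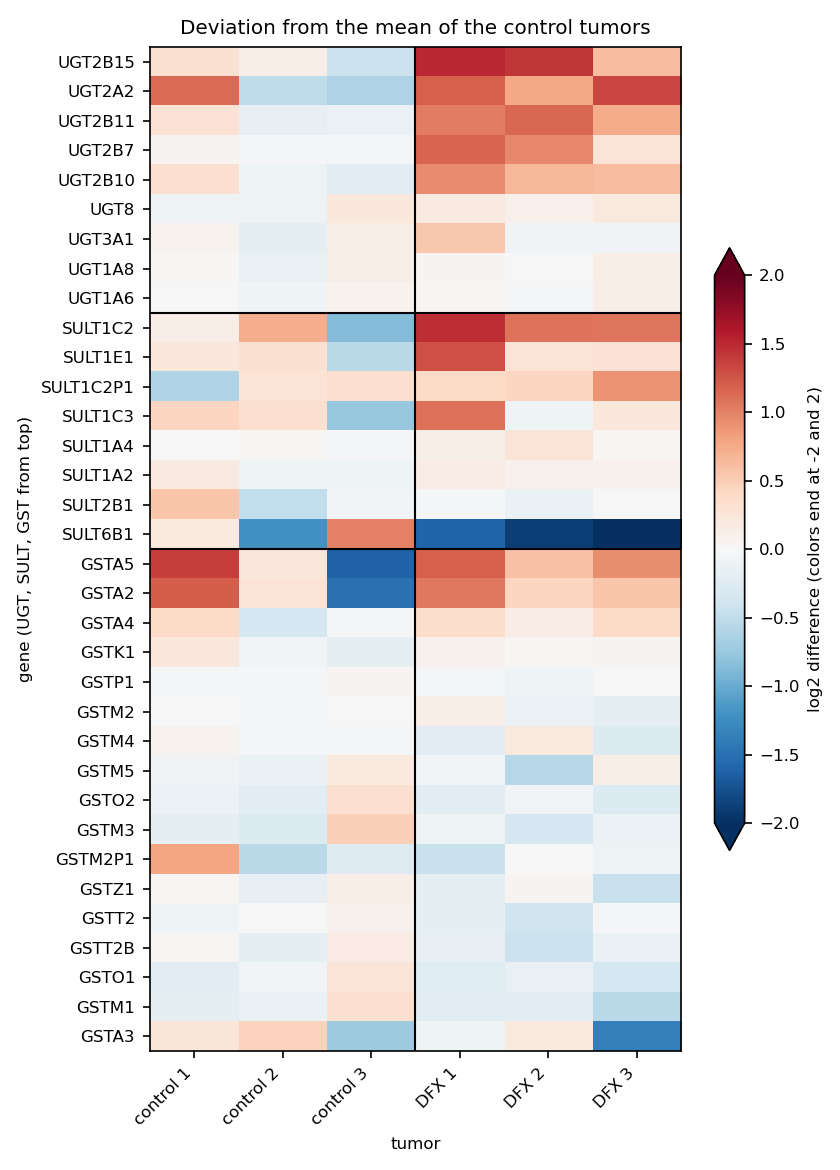
Log2 difference of each tumor (columns) from the mean of the 3 control tumors for the 34 tested genes (rows; UGT, SULT and GST from the top, ordered within each by the difference between groups); red is higher and blue lower, and colors end at -2 and 2. The UGT2B rows are red in all 3 DFX-treated columns, SULT6B1 is blue there, and GSTA2 and GSTA5 are blue in control tumor 3 alone.

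The supply of donor molecules was examined next. For this and the lists that follow, 3.68% of all tested genes were called higher and 4.29% lower. Of the 5 tested genes for UDP-glucuronate and other UDP-sugars, none passed (median difference -0.16). These include UGDH, which makes UDP-glucuronate (difference -0.09, limma unadjusted p 0.443), and SLC35D1, which carries it to the enzymes in the endoplasmic reticulum (-0.36, p 0.0524). Of 8 genes for sulfate and PAPS, 1 rose at the unadjusted threshold, PAPSS2, which makes PAPS. It was 8.17, 8.34 and 7.75 in the controls, against 8.60, 8.72 and 8.54 under DFX (difference 0.53, limma unadjusted p 0.0213, adjusted p 0.548). None of 8 genes of glutathione supply and recycling passed (median 0.12), none of 6 deconjugating enzymes (0.10), and none of 6 membrane-bound and other glutathione transferases (-0.09).

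Of 12 other phase II enzymes 2 rose at the unadjusted threshold, both methyltransferases. HNMT, which inactivates histamine, differed by 0.40 (limma unadjusted p 0.0359, adjusted p 0.578). INMT, which methylates tryptamines, differed by 0.78 (limma unadjusted p 0.0314, adjusted p 0.570). The groups did not overlap in either gene.

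Conjugation genes are known to be controlled by ligand-activated receptors such as PXR (NR1I2) and AHR, and by gut and liver factors such as CDX2 and HNF4A. Of 11 tested regulators 2 rose at the unadjusted threshold and none fell, where 3.68% of all tested genes rose and 4.29% fell. Of these regulators, CDX2 is also counted among the intestinal epithelial markers below. NR1I2 was 2.23, 3.79 and 2.06 in the control tumors, none of them well above background, and 5.10, 5.25 and 4.71 in the DFX-treated tumors, all of them well above background. It was at least 2.08-fold higher with DFX (limma unadjusted p 0.00269, adjusted p 0.513). CDX2 was 7.78, 7.77 and 6.58 in the controls, against 8.50, 8.65 and 8.48 under DFX (difference 1.17, limma unadjusted p 0.0137, adjusted p 0.522). AHR, the dioxin receptor, differed by 0.05 (limma unadjusted p 0.695). NFE2L2, the oxidative stress factor that controls many GST genes, was well above background on some arrays but had no tested probe.

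The promoters of the tested UGT2B genes are shown because each of these genes was higher with DFX at the unadjusted threshold. They are the 100 bases before the annotated start in RefSeq (GRCh38.p14), at chr4:68815894-68815993 (forward) for UGT2B10, chr4:69214749-69214848 (reverse) for UGT2B11, chr4:68670653-68670752 (reverse) for UGT2B15 and chr4:69096374-69096473 (forward) for UGT2B7. Capitals mark the longest run that UGT2B10, UGT2B11 and UGT2B15 share.
UGT2B10 promoter: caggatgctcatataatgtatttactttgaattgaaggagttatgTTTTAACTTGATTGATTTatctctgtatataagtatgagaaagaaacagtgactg
UGT2B11 promoter: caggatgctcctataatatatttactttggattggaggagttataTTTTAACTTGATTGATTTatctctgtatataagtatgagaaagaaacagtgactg
UGT2B15 promoter: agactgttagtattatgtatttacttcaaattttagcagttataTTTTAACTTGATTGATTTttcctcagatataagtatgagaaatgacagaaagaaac
UGT2B7 promoter: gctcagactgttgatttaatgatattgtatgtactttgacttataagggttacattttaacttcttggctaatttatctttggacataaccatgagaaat

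The shared run is 18 bases long, and 3 of 35116 RefSeq promoters hold it in this window, those of the 3 genes it was read from. UGT2B10 and UGT2B11 share a run of 55 bases, and all 4 genes share 9 bases. Over the 300 bases from 250 before to 50 after the start, on both strands, the CDX core TTTAT was found in all 4 UGT2B promoters and in 34.9% of all promoters. The same core was found for members that were not called (UGT1A8, UGT8, GSTA4 and GSTM3 among them) and for SULT6B1, which fell. The reverse complement of the CDX core overlaps the TATA box core TATAAA, which was found for UGT2B10 and UGT2B11 and in 11.5% of all promoters. The antioxidant response core TGACNNNGC occurred in UGT2B10 and UGT2B11 and in 13.4% of all promoters. None of the 4 held the xenobiotic response core GCGTG (36.5% of all promoters) or the hypoxia response core ACGTG (21.4%) in this window. These are matches of letters and no measure of binding.

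Markers of cell types were compared between the same groups of tumors. Beside each count, 3.68% of all tested genes were called higher and 4.29% lower. Of 14 intestinal epithelial markers 11 were tested, and 9 of these rose at the unadjusted threshold, with a median difference of 1.66. The median deviation over the list was 0.03, 1.05 and -1.07 in the controls, against 2.06, 1.83 and 1.30 under DFX, and the log2 of the summed level was 10.00 to 12.02 and 12.33 to 13.10. The groups did not overlap on either measure, and the third control tumor was the lowest. FABP1, the fatty acid binding protein of enterocytes and hepatocytes, differed by 4.30 (limma unadjusted p 0.000587, adjusted p 0.504), while CDX1 differed by 0.06 and FABP2 and ISX were not well above background in any tumor. The part of these markers in the UGT2B values was not tested. In whole tumors, more cells of a type and more RNA per cell cannot be told apart.

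Of 10 hepatocyte markers 6 were tested and 2 rose, HP (difference 1.88, limma unadjusted p 0.000244) and SERPINA1 (0.50, p 0.0179). Both are acute phase proteins. ALB, APOB, TTR and FGB were not well above background in any tumor. The median difference over the 6 genes was 0.56. The log2 of the summed level of the list was 10.57 to 11.28 in the control tumors and 12.55 to 13.03 in the DFX-treated tumors, and HP alone stood at 10.38 to 11.19 and 12.51 to 12.98.

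Of 8 ductal and epithelial markers, the labelled cell type, all were well above background in some tumor, and 3 rose at the unadjusted threshold (KRT8, KRT18 and EPCAM, differences 0.48, 0.27 and 0.43). The host lists moved less evenly. Of 7 tested fibroblast markers LUM rose (difference 0.87, limma unadjusted p 0.0435) and DCN fell (-1.30, p 0.00637). Of 4 endothelial markers PECAM1 rose (1.27, limma unadjusted p 0.000475), and none of 5 leukocyte markers passed. The summed fibroblast level was 13.75 to 14.47 in the control tumors and 13.63 to 13.94 in the DFX-treated tumors on the log2 scale, with overlap. The part of these lists in the values of the conjugation genes was not tested.

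The size of the UGT2B differences depended on the background correction. Without background subtraction the median of the 4 genes was 0.45, and with normexp correction 0.52, against 0.88 as reported. UGT2B11 and UGT2B15 passed the unadjusted threshold under all 22 alternatives run for them, with differences of 0.74 to 1.12 and 0.37 to 1.47. SULT6B1 passed under all 21 alternatives that kept it, with differences of -2.85 to -0.78. The Kruskal-Wallis H test among them passes every gene without overlap at n = 3 each (p 0.0495). It adds nothing to the separation of the groups already given.

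**Figure D5:**
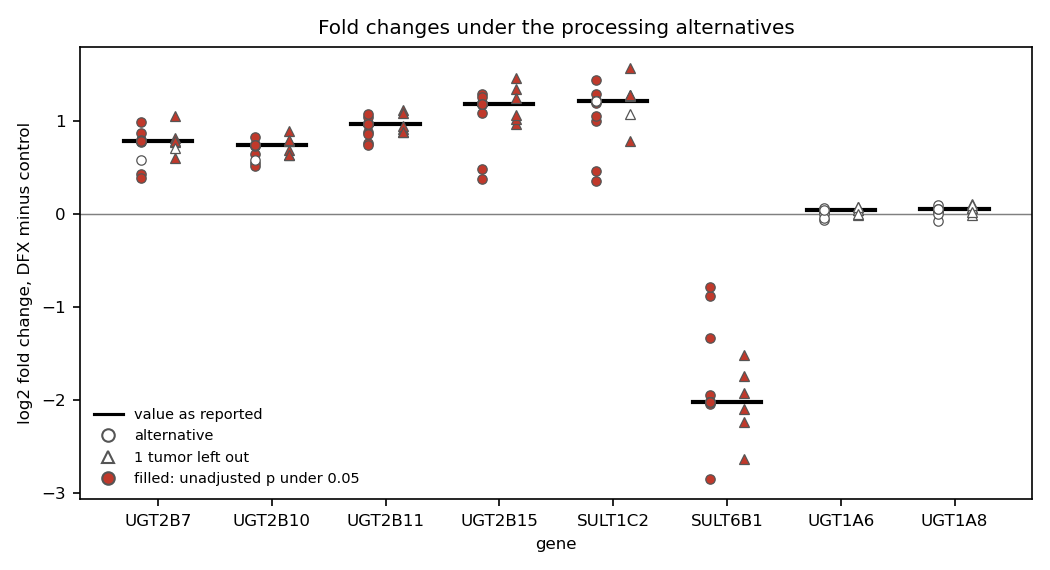
Log2 fold change, DFX-treated minus control tumors (y axis), of 8 genes (x axis) as reported (black line), under each alternative way of processing (circles) and with 1 tumor left out (triangles); filled symbols have an unadjusted p under 0.05. The 4 UGT2B genes and SULT1C2 stay above 0 and SULT6B1 below 0 throughout, while UGT1A6 and UGT1A8 lie on both sides of 0.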

How the data were processed

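Gene expression was measured on single-color Agilent 60-mer arrays in 3 control and 3 DFX-treated tumors. The authors deposited for each array the scanner's intensities (a processed signal with background subtracted, beside the raw mean and the background), the p-value of every spot over its background, and flags, not normalized between arrays; the file headers name Feature Extraction 10.7.1.1, the submitters' processing notes 9.5.1.1. The authors also deposited their quantile-normalized intensities on a linear scale, used as an alternative. Groups came from the sample labels.

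The methods describe log2 transformation and quantile normalization of raw signal intensities without naming a column. Here log2 values of the processed signal of 58717 non-control spots were quantile-normalized, with the raw mean signal as an alternative. Then 1398 spot values flagged as outliers were left out (3 in the members), and spots were averaged per probe. Of 50599 probes, 31807 had a background p under 0.05 on each of the 6 arrays. They were tested with limma 3.58.1 (lmFit, eBayes; R 4.3.3), and p-values were adjusted over all of them by Benjamini-Hochberg. A gene is its brightest tested probe (22718 genes). For animal experiments the methods name a Kruskal-Wallis H test, run as an alternative, without saying whether it was applied to the arrays. Intervals are 95%. P-values measure the spread between these tumors, and the number of arrays limits the precision.

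Members are all names matching the rule. Values per tumor are given for members with a probe at an unadjusted p under 0.05, those without overlap and with a difference of at least 0.5, the UGT1A entries, and the highest member of each class; UGT2A2, UGT8, SULT1C3, GSTA2, GSTA5, GSTM1 and the genes of other lists that passed no threshold (such as AHR and UGDH) were chosen after their values were seen. Some list genes and a searched motif are not reported here. Members and lists were chosen with earlier results of these data known. Of 44 names 43 matched a RefSeq symbol (GRCh38.p14) and 1 a synonym. Positions of probes were read from the array annotation (hg19); exon annotation of that build was not used here. The procedure was tested on simulated data. Alternatives covered scaling, background correction, signal column, dim-probe filter, outlier flags, the authors' values, the test, blocks, array weights, the probe rule and each tumor left out.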

Additional observations from a re-analysis of the deposited data

How the results depend on the processing

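Between 5 and 9 members were called unadjusted under all 23 alternatives, and none after adjustment. The 4 called UGT2B genes became 2 with the slide column as a block and 3 to 4 with 1 tumor left out. Called members numbered 5 to 9 and members without overlap 10 to 17 with 1 tumor left out; the 17 arose without control tumor 1. The median over all members was -0.0472 with median scaling, and ran from 0.0109 to 0.15 when 1 tumor was left out. The UGT median was 0.43 with normexp, 0.37 on the raw mean, 0.17 without the filter and 0.61 to 0.82 when 1 tumor was left out, and the UGT2B median was 0.52, 0.45, and 0.79 to 1.07. The SULT median was 0.12 with normexp, 0.11 on the raw mean, 0.0811 without the filter, 0.12 with either stricter filter and 0.0945 to 0.38 when 1 tumor was left out. The GST median was -0.12 with 75th percentile scaling, -0.0622 with normexp, -0.0581 on the raw mean, -0.27 with the column block, -0.0899 with array weights and -0.21 to -0.0704 when 1 tumor was left out. UGT1A6 turned to -0.0644 with median scaling and -0.0401 with the mean of its probes, and leaving out 1 tumor gave -0.0038 (control tumor 2) to 0.0803. UGT1A8 turned to -0.0680 with median scaling and -0.0026 with the column block, and leaving out 1 tumor gave -0.0070 (control tumor 2) to 0.11. Leaving out 1 tumor gave -0.0625 (control tumor 3) to 1.28 for GSTA2. The cause was not tested. SULT1C2 missed the threshold without moderation of the variance (linear model, unadjusted p 0.0659), and UGT2A2 passed on the raw mean, with normexp, both stricter filters or array weights, and without control tumor 1. GSTA5 passed without control tumor 1 too, and was 0.10 without control tumor 3.

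Of all called genes 53.8% were lower, 38.7% with scaling to the 75th percentile and 68.0% with median scaling. The Kruskal-Wallis H test called 15.4% of all genes, array weights 12.6% and the column block 4.42%. The filter on positive and significant signal was chosen after seeing the data.

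The replicate numbers of the labels did not pair the tumors: the deviations of same-numbered tumors correlated at 0.03, 0.03 and 0.02, and no control correlated best with its own number. With the replicate block 8 members were called, and all 4 UGT2B genes were kept. Values of probes not well above background on every array are the least certain.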
